A study of Saccharomyces cerevisiae with 32 samples.

Results

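The ligands described here are octapeptide variants of the C-terminus of CRIPT that carry a class I PDZ motif in the C-terminal library, in which CRIPT positions 5 to 8 were varied together and positions 1 to 4 stayed wild type. A sequence without a stop codon was a member when it had S or T at position 6 and V, I, L, F or M at position 8, its last residue, with any residue at positions 5 and 7. This rule used the sequence only. It gave 3298 of the 101553 sequences without a stop in the library, and 3298 of the 470640 sequences scored in the whole series. Of the 4000 ligands that fit the motif, the other 702 were not analysed here. Coverage of the 10 combinations of position 6 and end residue was between 71% for T with M and 94.5% for S with L.

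PDZ domains are small scaffold modules that bind the free C-terminus of a partner protein as an added strand. In class I recognition the hydroxyl group of S or T, located 2 residues before the end, meets a histidine at the start of helix alpha2, and the side chain of the last residue enters a hydrophobic pocket beside the loop that holds the terminal carboxylate. PSD95 is a scaffold of excitatory synapses, and CRIPT is a ligand of its PDZ domain PDZ3. In the numbering that sets the last residue to 0, positions 5, 6, 7 and 8 are -3, -2, -1 and 0.

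Growth was measured in yeast of strain BY4741, a laboratory strain, by a protein complementation assay on PDZ3 and CRIPT, in which growth in methotrexate reads out binding. The C-terminal library had 3 output samples, grown for about 5 generations with 200 µg/mL methotrexate, and 3 input samples, grown for 5 generations without it. The authors merged the replicates into 1 fitness score with 1 error per sequence, so the depth behind each score is unknown and no replicate spread can be given. Each value below is that score, with the authors' error after the ± sign. For a mean of scores or differences, the ± gives the propagated error. Wild type scored -0.00849 ± 0.0549. The 16170 stop rows, which lack the wild-type end of the ligand, had a median of -1.001 and a quartile range of -1.05 to -0.947, so a score near -1 stands for the lower end of the readout.

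The 10 members below have the wild-type residues Q at position 5 and S at position 7 and differ only at the 2 motif positions. They are shown because they give the motif change alone.
T at position 6 and V at the end, the wild type: KNYKQTSV
T at position 6 and I at the end: KNYKQTSI
T at position 6 and L at the end: KNYKQTSL
T at position 6 and M at the end: KNYKQTSM
T at position 6 and F at the end: KNYKQTSF
S at position 6 and V at the end: KNYKQSSV
S at position 6 and I at the end: KNYKQSSI
S at position 6 and L at the end: KNYKQSSL
S at position 6 and M at the end: KNYKQSSM
S at position 6 and F at the end: KNYKQSSF

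With T at position 6, the I end scored -0.191 ± 0.0501 and the L end -0.203 ± 0.0491. The M end was lower, at -0.550 ± 0.0498, and the F end lowest, at -0.808 ± 0.0529. All 4 were below wild type. With S at position 6 the V end scored -0.177 ± 0.0490, also below wild type (adjusted p = 0.0224, z test with the authors' errors, Benjamini-Hochberg over the whole library). The L and I ends with S scored -0.514 ± 0.0494 and -0.526 ± 0.0518. With S the F end had -0.727 ± 0.0483 and the M end -0.870 ± 0.140, and this last value, with its wide error, was the only one of the 10 not past the threshold above the stop level.

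Each member was compared with wild type and with the median of the stop rows, at an adjusted p under 0.05 over all sequences of the library. Of 3297 members other than wild type, 3208 (97.3%) scored below wild type, against 99.9% of all sequences without a stop. The other 89 members were not separated from wild type. They are 72.4% of the 123 such sequences in the library. Scores above wild type numbered 6, and 0 passed the threshold, also 0 at an unadjusted p under 0.05 (the share over the library is 0%). The wild-type error of 0.0549 enters each of these comparisons, so small gains could not be detected in this library. For KNYKETSV, scores with smaller errors from other tables are given below.

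Above the stop level were 1192 members (36.1%), against 3.42% of all sequences without a stop. By the same rule 2.24% of the stop rows were called, which is the background of this call. The share was 9.13% among 9593 ligands that kept T or S but had another end residue. It was 0.704% among 9803 class II ligands, with a hydrophobic residue at position 6, and 0.759% among 1977 class III ligands, with D or E there, both below the share of stop rows. Their medians, -1.04 and -1.03, were also below the pooled stop median. The stop level itself varied, with medians of -0.977 for a first stop at position 5 (2.75% called) and -1.03 at position 8 (1.48% called). Members ran from -1.33 to 0.0808 with a median of -0.908, and the middle 50% of them lay between -1.005 and -0.666. Scores below the stop median occurred in 864 members, and 0 of them passed the threshold, also 0 at an unadjusted p under 0.05.

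The 10 combinations of position 6 and end residue differed widely. Ligands with T and V had a median of -0.386 (lowest -1.15, highest 0.0808, 331 ligands), and 85.5% of them were above the stop level. Next came T with I at -0.731 and S with V at -0.734, with 59.0% and 59.9% above the stop level. T with L had -0.819 and 51.1%. The medians were -0.896 for S with I and -0.975 for S with L, and 32.6% and 19.8% of these ligands were above the stop level. With M at the end the medians were close to each other, -0.965 with T and -0.971 with S, and 19.0% and 16.8% were above the stop level. F, which is counted among class I end residues, gave medians of -1.01 with T and -1.01 with S, at the level of the stop rows, and 6.43% and 5% above it.

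Ligands not separated from wild type came mainly from T with V, which held 66 of the 89. S with V held 9, T with L 6, T with I 4, and T with M and S with M 2 each. Their scores went down to -0.301, so not being separated does not place a ligand at the wild-type level. E at position 5 was present in 30 of them (33.7%), although only 115 members carry E there. Of the 14 with I, L or M at the end, 13 had E at position 5, and the exception was KNYKVTEL at -0.205 ± 0.0978. By the number of residues changed from wild type, the count was 15 of 38 ligands with 1 change, 56 of 471 with 2, 17 of 1597 with 3 and 1 of 1191 with 4. That last ligand was KNYKESRM, at -0.168 ± 0.0767. The composition of these 89 was examined after their scores had been seen.

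The 10 highest members, given as a description, were led by 6 ligands with E at position 5, T at 6 and V at the end.
A at position 7: KNYKETAV
S at position 7: KNYKETSV
R at position 7: KNYKETRV
P at position 7: KNYKETPV
They scored 0.0808 ± 0.0669 (KNYKETAV), 0.0610 ± 0.0592 (KNYKETSV), 0.0572 ± 0.0552 (KNYKETRV) and 0.0507 ± 0.0672 (KNYKETPV). KNYKETTV and KNYKETGV followed at 0.00320 ± 0.0545 and -0.00576 ± 0.0645, then wild type, KNYKQTRV at -0.0192 ± 0.0518 and KNYKETNV at -0.0234 ± 0.0845. The tenth, KNYKETSI at -0.0291 ± 0.0670, was the only one of the 10 with an end other than V. The 5 lowest members, KNYKQSVF, KNYKHTEF, KNYKGSFV, KNYKATWI and KNYKWTAF, scored between -1.33 and -1.24 with errors of 0.161 to 0.201, among the widest of the members, and were not separated from the stop level.

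Several members end like proteins known to bind PDZ domains of PSD95 or related scaffolds, placed here behind the first 4 residues of CRIPT. KNYKQTRV, with the end of the synaptic Ras regulator SynGAP, scored -0.0192 ± 0.0518. KNYKVTSV, with the end of the tumour suppressor APC, had -0.0295 ± 0.0521, and KNYKTTRV, with that of the synaptic adhesion protein neuroligin 1, had -0.0494 ± 0.0502. KNYKESKV carries the end of the beta1 adrenergic receptor and scored -0.102 ± 0.105. KNYKTTPV, with the end of the auxiliary AMPA receptor subunit stargazin, scored -0.139 ± 0.0480. These 5 were not separated from wild type in this library. In the pairwise library described below, KNYKTTPV scored -0.178 ± 0.0519 and wild type 0.0314 ± 0.0140. KNYKQTRV, KNYKVTSV and KNYKTTRV had 0.0308, 0.0159 and 0.0105 there. In the C-terminal library KNYKETDV, with the end of the potassium channel Kv1.4, was below wild type at -0.289 ± 0.0586. KNYKNTVV, with the end of the receptor tyrosine kinase ErbB4, was lower still at -0.528 ± 0.0566. Both were above the stop level. In the pairwise library KNYKETDV had -0.109 ± 0.116, a wide error that leaves it close to wild type, and KNYKNTVV had -0.612 ± 0.0798. The ends of the NMDA receptor subunits GluN2A and GluN2B and of the channel Kir2.1 were not analysed here.

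T and S at position 6 were then compared in pairs of ligands with the same residues at positions 5, 7 and 8, with p-values adjusted over all 5624 such pairs of the library. Of 1436 member pairs, 374 (26.0%) were higher with T and 6 (0.418%) lower. Over the library 9.14% of pairs were higher with T and 0.782% lower. With V at the end, 122 of 275 pairs were higher with T, and the mean score was -0.441 with T and -0.673 with S, a difference of 0.232 ± 0.00579. T gave the higher score in 260 of these 275 pairs. The mean difference was 0.174 ± 0.00538 with I (110 of 308 pairs higher) and 0.177 ± 0.00474 with L (138 of 358).

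With F and M at the end few pairs separated T from S. The mean difference was 0.00819 ± 0.00667 with F, where 3 of 265 pairs were higher and 2 lower. With M it was -0.00396 ± 0.00736, with 1 of 230 higher and 3 lower, and T was the higher in 112 pairs. In 241 of the 265 pairs with F and 170 of the 230 with M neither ligand was above the stop level, against 35 of 275 with V, so a difference could be measured in few of them. The largest differences in favour of T were KNYKWTQV at -0.285 ± 0.0625 against KNYKWSQV at -1.13 ± 0.124, KNYKHTEV against KNYKHSEV with a difference of 0.675 ± 0.153, and KNYKVTEL against KNYKVSEL with 0.650 ± 0.175. In favour of S were KNYKMTVM (-1.04) against KNYKMSVM (-0.587), KNYKETFV (-0.972) against KNYKESFV (-0.529) and KNYKTTAM (-0.943) against KNYKTSAM (-0.544).

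Among ligands with V at the end, T minus S was computed by residue and by residue group at the neighbouring positions 5 and 7. The difference is given for 3 of these neighbour sets, and the others are not shown. Beside it stands the share called higher over all pairs of the library with the same neighbour and any end. That share includes ends at the stop level. The closer reference is the count given above for all 275 pairs with V at the end, whose mean was 0.232. With P at position 7, 19 of 19 pairs were higher with T (17.4% over the library), with a mean of 0.378 ± 0.0179. With basic residues (K, R, H) at position 5, 32 of 49 pairs were higher (9.99% over the library) and the mean was 0.274 ± 0.0132. With P at position 5, 3 of 20 pairs were higher (1.5% over the library) and the mean was 0.0984 ± 0.0154, with mean scores of -0.845 with T and -0.943 with S, both near the stop level, which limits the difference that can be seen. Whether these differences differ from each other was not tested.

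End residues were compared with V, the wild-type residue, in pairs with the same residues at positions 5, 6 and 7. Over all 4 end residues 1343 of 2255 member pairs (59.6%) were lower than with V and 4 higher, against 10.4% lower and 0.506% higher over all pairs of the library with any residue in place of V. I was the closest to V. Pairs averaged -0.760 with I and -0.548 with V, a difference of -0.212 ± 0.00395, and 252 of 586 were lower (43.0%, against 7.28% over the library). The difference was -0.284 ± 0.00374 for L, with 62.2% lower (10.5% over the library). It was -0.368 ± 0.00460 for M, with 65.8% lower (11.6%), and -0.437 ± 0.00439 for F, with 68.5% lower (12.1%).

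Of the neighbours in this order, I with L and M with F were compared directly, and L with M was not. The medians of L and M ends were -0.819 and -0.965 with T at position 6, but -0.975 and -0.971 with S. I exceeded L by 0.0800 ± 0.00358, with 57 of 663 pairs higher and 1 lower (1.47% higher and 0.145% lower over the library). For most single pairs the errors did not separate them. M exceeded F by 0.0618 ± 0.00489, with 32 of 491 pairs higher and 0 lower (1.07% higher and 0.0323% lower over the library), where 8 were lower at an unadjusted p under 0.05. Only 4 pairs exceeded V, and 2 of the largest 3 share 1 sequence. KNYKETFV scored -0.972 ± 0.0745, at the stop level, with no second score in the pairwise library analysed here, while KNYKETFI scored -0.322 ± 0.0661 and KNYKETFL -0.490 ± 0.0652. Another was KNYKWSQI, higher than KNYKWSQV by 0.468 ± 0.146. The largest losses were KNYKHTEF, KNYKWTAF and KNYKVTAM, with differences from the same ligands with V of -1.12 ± 0.208, -1.04 ± 0.199 and -1.03 ± 0.155 in score. These 3 scored below the stop median with wide errors, at -1.24 ± 0.197, -1.33 ± 0.191 and -1.11 ± 0.141, which adds to the size of the differences.

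On average, the loss on replacing V was larger with T than with S at position 6. The stop level limits this comparison. Neither the T nor the S ligand was above it in 241 of 265 pairs with F and 170 of 230 with M. For such pairs the gap mostly follows the score with V, which was higher with T. For each choice of positions 5 and 7, the gap between V and another end with T was set against the same gap with S. With F the gap averaged 0.546 with T and 0.333 with S over 219 combinations, a mean difference of 0.213 ± 0.00927, and with M it averaged 0.482 with T and 0.252 with S over 187. With L the gaps were 0.323 and 0.257, and with I 0.240 and 0.179, again with T before S. Of the 906 combinations 239 had the larger gap with T and 21 with S at the threshold, together 28.7%. Over all residues in place of S and all ends the share was 69.4%, and 298 of the 906 had an unadjusted p under 0.05. By end residue it was 36.5% for I, 53% for L, 75.1% for F and 70.2% for M, so the members' count is below the background in each case and only the sizes are given as a description.

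Cysteine, which lies outside the motif, gave higher ends than 4 of the 5 residues inside it. Ligands with T at position 6 and C at the end had a median of -0.508 over 272 ligands, a highest score of 0.0295, and 75.7% above the stop level, and 26 of them were not separated from wild type. With S and C the median was -0.821 and the share 46.4%. In matched pairs with T, V exceeded C by 0.0995 ± 0.00616, with 24 of 245 pairs higher (2.29% over the library). I was lower than C in 55 of 249 pairs with T (3% over the library), with a mean difference of -0.133 ± 0.00582, L in 122 of 263 (6.26%), M in 142 of 222 (7.74%) and F in 166 of 233 (9.28%). A at the end, with T, had a median of -0.967 and 15.4% above the stop level, against 6.43% with F. Y and W gave 0% and 0.613%. These comparisons were chosen after the scores had been seen.

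At position 5, E stood apart from the other residues. Members with E had a median of -0.389 over 115 ligands, and 80.9% were above the stop level. For Q, the wild-type residue, the median was -0.687 and the share 63.1%. In pairs with the same residues elsewhere, E exceeded Q in 24 of 110 at the threshold (21.8%, against 2.17% over the library) and was below it in 1 (0.142% over the library), with a mean difference of 0.170 ± 0.00964. E was the higher in 99 of the 110 pairs. The mean difference was 0.0771 ± 0.0254 among ligands with T and V, where Q already scored -0.203, and 0.297 ± 0.0472 over 7 pairs with T and M. The T and V mean is lowered by the 1 pair called lower, KNYKETFV at -0.972 ± 0.0745 against KNYKQTFV at -0.296 ± 0.0583. The largest single gains were KNYKETPM at -0.257 ± 0.0664 against KNYKQTPM at -0.867 ± 0.148, KNYKETKM at -0.258 ± 0.0952 against KNYKQTKM at -0.824 ± 0.0618, and KNYKVSHV at -0.402 ± 0.0511 against KNYKQSHV at -0.851 ± 0.0771.

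D, the other acidic residue, went the opposite way at position 5. In all, 70 of 154 pairs were lower with D than with Q and 0 higher, with 1 higher at an unadjusted p under 0.05, and the mean difference was -0.272 ± 0.00845 (2.6% lower and 0.62% higher over the library). T and V matched Q most closely, with mean differences of 0.00364 ± 0.00635 and -0.0145 ± 0.00758. For T, 2 of 183 pairs were higher and 1 lower (0.187% and 0.131% over the library). S, C, I and H had mean differences between -0.0972 and -0.0660. The lowest means were those of P at -0.320 ± 0.00603, L at -0.309 ± 0.00628 and G at -0.309 ± 0.00909, for which 101 of 187, 104 of 187 and 67 of 143 pairs were lower. Over the library the shares were 2.56% for P, 3.15% for L and 2.57% for G. The largest single losses were KNYKPTYV (-0.981) against KNYKQTYV (-0.186), KNYKGTCI (-1.17) against KNYKQTCI (-0.380) and KNYKPTCV (-0.968) against KNYKQTCV (-0.188). KNYKGTCI lay below the stop median with a wide error of 0.141, which adds to the size of its difference, -0.788 ± 0.157. With T and V in the motif, 17 of 17 pairs were lower with P. Over all residues 27.7% of 2949 member pairs were lower than with Q and 1.02% higher, against 1.63% and 0.251% over the library.

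The aliphatic residues did not behave as a group at position 5. V and I, which branch at the beta carbon, had medians of -0.668 and -0.810, while L and A had -1.01 and -0.968 and M had -0.924. The basic residues split too, with -0.814 for H, against -0.952 for R and -0.948 for K. F, W and Y had medians of -0.949, -0.988 and -0.947. By group, 52.9% of ligands with S, T, N, Q or C at position 5 were above the stop level, 42.6% of those with D or E (E 80.9% and D 15.4%), 34.9% of aliphatic, 33.1% of basic and 24.8% of aromatic ones, 14.9% with G and 7% with P. By the median of each of the 20 residues, Spearman's rho with the order in T with V was 0.932 for S with V, 0.937 for T with I, 0.955 for T with L, 0.926 for S with I and 0.835 for S with L. It was lower for T with M, at 0.731, and T with F, at 0.699, where most ligands were not above the stop level. These values describe 20 residues of 1 library.

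At position 7, R and S gave the highest levels. The medians were -0.641 with R and -0.762 with S, the wild-type residue, and 62.0% and 61.2% were above the stop level. R minus S averaged 0.00943 ± 0.00658 over 174 pairs, of which 3 were higher and 1 lower (0.18% and 0.27% over the library). Q, A, T and E followed, with mean differences from S between -0.0887 and -0.0614. K had -0.0949 ± 0.00821. W at -0.261 ± 0.00997, L at -0.250 ± 0.00649, D at -0.246 ± 0.00797, F at -0.245 ± 0.00787 and G at -0.243 ± 0.00789 were lowest, and 78 of 178 pairs with L and 57 of 149 with D were below S (2.88% with L and 2.34% with D over the library). Over all residues 625 of 2905 member pairs (21.5%) were lower than with S and 5 higher, against 1.46% and 0.143% over the library.

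D and E also had different counts at position 7, with 57 of 149 pairs below S for D and 8 of 122 for E (0.427% over the library). This difference between D and E was not tested. P minus S averaged -0.0686 ± 0.0184 with T and V, where 1 of 18 pairs was lower, and -0.259 ± 0.0189 with S and V, where 6 of 18 were (1.2% over the library). This is the same set of scores as the gain with T beside P given above. The 5 pairs higher than S at position 7 include KNYKKSQM, KNYKSSQM and KNYKNTRM, which exceeded the same ligands with S by 0.366, 0.333 and 0.321, all with M at the end. The largest losses were KNYKETFV, which fell by 1.03 ± 0.0952 against KNYKETSV, and KNYKETIL, which fell by 0.972 ± 0.194 against KNYKETSL. KNYKETIL itself had a wide error, at -1.02 ± 0.181. By median at position 7, Spearman's rho with the order in T with V was 0.851 for S with V, 0.767 for T with I, 0.711 for T with L, 0.621 for T with M, 0.734 for T with F, 0.750 for S with I and 0.579 for S with L, again as a description over 20 residues.

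Single substitutions show the same positions in the wild-type setting. Of 38 ligands with 1 change, 23 were below wild type, and each of the 38 was above the stop level. At position 5, E scored 0.0610 ± 0.0592 (KNYKETSV), V -0.0295 ± 0.0521 (KNYKVTSV), C -0.0405 ± 0.0575 (KNYKCTSV), T -0.0435 ± 0.0508 (KNYKTTSV), I -0.0642 ± 0.0511 (KNYKITSV), H -0.0705 ± 0.0492 (KNYKHTSV) and S -0.0900 ± 0.0495 (KNYKSTSV), none of them separated from wild type. The errors of this library limit that comparison, and scores with smaller errors are given below. Position 5 was lowest with P at -0.630 ± 0.0469 (KNYKPTSV), with G at -0.444 ± 0.0617 (KNYKGTSV) and L at -0.430 ± 0.0492 (KNYKLTSV). At position 7, R scored -0.0192 ± 0.0518 (KNYKQTRV), A -0.0408 ± 0.0633 (KNYKQTAV) and P -0.0692 ± 0.0495 (KNYKQTPV). D was lowest there at -0.369 ± 0.0632 (KNYKQTDV), then W at -0.365 ± 0.0576 (KNYKQTWV).

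The pairwise library, a separate experiment with 1 or 2 changes over all 8 CRIPT positions and its own 3 output and 3 input samples, scored 378 of the members again. The scales of both tables are tied: a line of the wild-type-PDZ3 scores in the PDZ3-CRIPT table (its listing for PDZ3 residues 51 to 100) on either has slope 1 and intercept 0, over 68 and 154 shared sequences. A match in average level or size between these tables is therefore partly built in. The lower ends still differed, with a stop median of -1.001 for the C-terminal library, against -0.893 for the pairwise one. Scores in the C-terminal library differed from those in the pairwise library for 8 of the 378 members (2.12%), against 5% of the 1321 shared sequences. Across members Pearson's r was 0.848 and Spearman's rho 0.887, as a description, since 287 of the 378 have T and V. Pearson's r was 0.869 for T with V, 0.871 for S with V (34 ligands) and 0.733 for T with L (29). It was lower over the few ligands of T with I (0.439, 5), T with M (0.207, 12) and T with F (0.048, 7). Of the 8 that differed, 6 were lower in the C-terminal library and 2 higher, and of the 66 among all shared sequences 64 were lower. Among the 8 were KNYKPTYV, at -0.981 ± 0.0483 here against -0.453 ± 0.0859 in the pairwise library, and KNYKPTCV at -0.968 ± 0.0489 against -0.516 ± 0.126. Both are among the largest losses against Q at position 5 given above.

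The matched differences were repeated inside the pairwise library, a step chosen after the data had been seen. Among members with V at the end, T exceeded S in 30 of 30 pairs, 28 of them at the threshold (87% of all such pairs in that table were called), with a mean difference of 0.265 ± 0.0107. The same pairs gave 0.237 in the C-terminal library. The mean difference from V was -0.309 over 6 pairs for I, -0.380 over 25 for L, -0.607 over 8 for F and -0.636 over 12 for M. The same pairs in the C-terminal library gave -0.282, -0.325, -0.676 and -0.592 in that order. They were called lower in 3, 18, 4 and 12 pairs, against 51.4%, 62.6%, 37.9% and 82.4% of all such pairs called there. E exceeded Q at position 5 in 14 of 14 pairs, 9 at the threshold (64.5% over that table), by 0.190 ± 0.0224, against 0.128 for the same pairs in the C-terminal library. For I and for E the called share was near that of all such pairs in that table. Those counts are therefore not particular to the members.

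Single substitutions were also scored against wild-type PDZ3 in the PDZ3-CRIPT table, which holds 2 listings. Wild type scored 0.0314 ± 0.0140 in the pairwise library and -0.000512 ± 0.00383 in the listing for PDZ3 residues 51 to 100. KNYKETSV scored 0.165 ± 0.0197 in the pairwise library and 0.116 ± 0.00402 and 0.127 ± 0.00430 in the listings for PDZ3 residues 1 to 50 and 51 to 100. There, as in the C-terminal library, it was the highest single substitution among the members, except in the listing for residues 1 to 50, where KNYKQTTV was higher. Where wild type has a score above, KNYKETSV exceeded it by more than the errors. In the listing for residues 51 to 100, KNYKITSV (-0.079 ± 0.0043) and KNYKSTSV (-0.052 ± 0.0043) were below wild type by more than the errors. So were KNYKCTSV (-0.0273 ± 0.0042), KNYKHTSV (-0.0268 ± 0.0091), KNYKTTSV (-0.0145 ± 0.0044) and, closest to wild type, KNYKVTSV (-0.0097 ± 0.0041). KNYKQTRV (0.0179 ± 0.00425) was above it there. These differences from wild type were not tested. In the pairwise library and the 2 listings KNYKQSSV had -0.161, -0.170 and -0.156, against -0.177 in the C-terminal library. Both listings gave the ends other than V the same order as the C-terminal library, I, L, M, F. In the pairwise library F and M changed places, at -0.599 ± 0.102 for KNYKQTSF and -0.757 ± 0.128 for KNYKQTSM, a difference within their errors. KNYKQTTV disagreed most, with 0.218 ± 0.00895 and 0.0478 ± 0.00518 in the listings for residues 1 to 50 and 51 to 100, while the C-terminal library gave -0.0769 ± 0.0478 and the pairwise library -0.0497 ± 0.0211.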

How the data were processed

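The authors deposited, per the file headers, 1 fitness score and 1 error (sigma) per amino acid sequence for each library, with replicates already merged, so no count was available. The log base and scaling of the score, the kind of error, the count filter and the tool were not given in the sources used here. Cutadapt and FastQC are named in the submitters' processing notes without a role. The C-terminal, pairwise and PDZ3-CRIPT tables were used. Differences were divided by the root of the summed squared errors, and two-sided normal p-values were adjusted by the Benjamini-Hochberg method over every such comparison of the table, with a threshold of 0.05. Comparisons that share a sequence share its error. The p-values rest on the authors' errors and not on replicate values. The stop level was the median of all stop rows. Ligands were named by rule: Q and S at positions 5 and 7, the 10 highest and 5 lowest, ends of known partners, the 3 largest called differences each way, and single substitutions. Members, lists and tests were chosen with earlier results of these data known. The code was tested on simulated data. Python 3.11.15, numpy 2.4.6, pandas 2.3.3 and scipy 1.17.1 were used.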

Additional observations from a re-analysis of the deposited data

Results flagged for a closer look

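The gap between V and another end residue was tested for a difference between ligands with T and with S at position 6, with residues at positions 5 and 7 held equal. It differed at the threshold in 44 of 239 combinations for I, 34 of them with the larger gap for T. For L the count was 57 of 261, with 48 larger for T, for F 82 of 219, with 81, and for M 77 of 187, with 76. The share called over all combinations of the library was 36.5% for I, 53% for L, 75.1% for F and 70.2% for M, each above the members' own share. Most ligands with F or M were not above the stop level with T or with S, which limits these differences. The largest differences with the larger gap for T were at KNYKWTQV with I, 0.896 ± 0.173, and at KNYKHTEV with F and with M. The largest the other way were at KNYKETFV with I, -1.04 ± 0.162, at KNYKNTYV with I, -0.509 ± 0.192, and at KNYKTTVV with L, -0.471 ± 0.130. KNYKNTYV is among the members that differed between libraries, with -0.938 ± 0.148 here against -0.339 ± 0.0690 in the pairwise library. KNYKTTVV was also lower here, at -0.575 ± 0.0975 against -0.273 ± 0.0551, though not past the threshold. The difference at KNYKWTQV rests on KNYKWSQV, which scored below the stop median with a wide error, at -1.13 ± 0.124.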

How the results depend on the processing

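Of 44 recomputed values, 34 stayed the same, which for a share of ligands or pairs past the threshold means within 1.5 times, and 0 reversed. At an adjusted p under 0.01 the share of combinations with a different V gap for T and S was 14.5%, against 28.7%, and the share of members that differed between the C-terminal and pairwise libraries was 0.529%, against 2.12%. The median in place of the mean moved T minus S by more than the propagated error, to 0.219 with V and 0.164 with L, and the difference from V to -0.207 for I, -0.477 for F and -0.362 for M. Weighting by the inverse squared error gave 0.184 for T minus S with L, -0.292 for L and -0.430 for F. The share of members above the stop level was between 29.6% (above the 99th percentile of the stop rows) and 44.5% (the 50% of sequences with the lower errors). Stop rows scattered 1.12 times as widely as their errors state. Multiplying every error by this left 21.1% of pairs higher with T. Depth is unknown, and the stop level hides differences among low ligands. No paired analysis was possible because the tables hold no values per replicate. For the same reason leaving out a replicate was not run.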
